A study of Mus musculus with 6 samples.

Results

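The genes described here encode the contractile unit of cardiac muscle, the sarcomere, and the Z-discs that bound it. They were chosen as 38 named genes, found by their Ensembl identifiers (without version) among the 52550 genes of the deposited table, and all 38 were present. The fetal and adult heavy chains Myh7 and Myh6, skeletal actin (Acta1) and telethonin (Tcap) were left out of the group by its definition. Hearts came from 6 C57BL/6 mice aged 10 weeks, 2 weeks after permanent ligation of the left anterior descending coronary artery at 8 weeks of age. Of these, 3 were wild type (WT) and 3 carried the lncRNA-DRR-/- genotype (KO), a deletion of a long noncoding RNA. All 6 hearts were infarcted, and no sham-operated heart was analysed here. The labels do not say how the deletion was made, or which part of the heart was taken. They also do not say whether the hearts came from separate litters or sessions, so p-values measure only the spread between these samples.

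Sarcomeres shorten when myosin thick filaments pull on actin thin filaments, and troponin and tropomyosin on the thin filament make that pull depend on calcium. Titin spans from the Z-disc to the M-band and acts as a spring, while the Z-disc anchors thin filaments and carries many proteins that respond to stretch. In the heart several parts exist as ventricular and atrial or fetal and adult forms, and genes of this group are known for mutations that cause cardiomyopathy.

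Members of a muscle programme often share binding sequences for muscle transcription factors. Promoter windows are shown for some members described below, picked because these windows hold the letters of a motif searched for. Ttn, Mybpc3 and Flnc are 3 of the 5 members with the smallest p in the comparison of genotypes, and Myl7 is the member whose level varied most between libraries. Ankrd23, the member with the smallest p, held none of the motifs searched, and Myom2, also among the 5, had no window. The windows of Lmod2, Myl2 and Myl4 held none of these motifs either. For Myl2 the windows lie well upstream of the annotated start (the nearer ends at chr5:122093188, the gene starts at 122100951). The bases directly before that start were therefore not searched. The sequences are the 250 bases before a RefSeq gene start (GRCm38.p6), read 5′ to 3′ on the strand of the gene. Capitals mark the letters searched for MEF2 (CTA and TAG with any 4 bases between them) in the first 3. In Myl7 they mark the letters CATTCCT of the M-CAT motif followed by a CArG box. The search was looser than the MEF2 site, which has only A or T at those 4 places. Ttn (AATT) and Mybpc3 (TATT) meet this, while the stretch in Flnc (AGAC) does not. Flnc has another window, directly before its annotated start and not printed here, which holds the letters CATTCCT but not the MEF2 letters.
Ttn, chr2:76982548-76982797, minus strand: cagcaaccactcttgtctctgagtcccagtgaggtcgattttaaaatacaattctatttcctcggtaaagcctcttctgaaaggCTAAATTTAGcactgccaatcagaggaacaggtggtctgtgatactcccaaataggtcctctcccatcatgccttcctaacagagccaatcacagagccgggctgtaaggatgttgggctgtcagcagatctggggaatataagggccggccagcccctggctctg
Mybpc3, chr2:91117894-91118143, plus strand: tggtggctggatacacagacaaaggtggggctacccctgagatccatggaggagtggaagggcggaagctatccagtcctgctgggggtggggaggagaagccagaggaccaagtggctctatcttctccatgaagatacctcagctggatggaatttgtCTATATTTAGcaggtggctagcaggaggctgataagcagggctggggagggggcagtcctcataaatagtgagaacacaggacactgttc
Flnc, chr6:29432903-29433152, plus strand: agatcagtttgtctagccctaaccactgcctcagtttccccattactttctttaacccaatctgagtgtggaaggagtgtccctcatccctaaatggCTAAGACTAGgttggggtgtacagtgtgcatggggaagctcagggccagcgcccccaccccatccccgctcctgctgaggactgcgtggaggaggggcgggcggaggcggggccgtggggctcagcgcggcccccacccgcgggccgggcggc
Myl7, chr11:5898783-5899032, minus strand: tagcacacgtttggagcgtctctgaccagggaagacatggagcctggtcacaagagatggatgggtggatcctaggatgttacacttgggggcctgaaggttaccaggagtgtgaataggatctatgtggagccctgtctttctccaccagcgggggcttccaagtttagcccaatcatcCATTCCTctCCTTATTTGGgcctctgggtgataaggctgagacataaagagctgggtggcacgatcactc
Both strands were searched, and the marked motifs do not overlap each other. RefSeq windows were found for 32 of the 38 members, 44 windows in all because some genes have several starts. The MEF2 letters in this loose form stood in 6 of these 44 windows, of 6 members (Flnc, Ldb3, Mybpc3, Myoz2, Synpo2l and Ttn). They stood in 3.20% of all 32851 windows of the same length. The M-CAT letters stood in 7 of the 44 windows, of 7 members, and in 4.51% of all windows. The CArG box stood in 7 of the 44, of 6 members, and in 1.47% of all windows. The letters CACGTG, the E-box used by the circadian clock, stood in 2 of the 44 (Actn2 and Myh7b) and in 6.02% of all windows. These are matches of letters, and binding was not measured.

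Values are FPKM, fragments scaled for transcript length and for the depth of the library. Library depth was about 5189000 to 9398000 fragments, estimated from the worth of 1 fragment, and each library held 14299 to 14869 genes at 0.5 FPKM or more. Xist, made from the inactive X chromosome, stood at 25.6 FPKM in KO replicate 3 and at no more than 0.0742 FPKM in any other library, and the Y-linked Ddx3y at 0.0280 FPKM against 13.02 FPKM or more, so this library alone read as female. The labelled tissue, heart, was checked against its markers: all 15 cardiomyocyte markers outside the sarcomere were measured in each library, and none was at 0. Their sum was 12551, 19997 and 21211 FPKM for WT replicates 1 to 3 and 19906, 15853 and 20918 FPKM for the KO replicates, lowest in WT replicate 1 and KO replicate 2. Fibroblast markers (8 genes) were highest in the same libraries, at 1592, 952 and 848 FPKM for WT and 1373, 1872 and 1016 FPKM for KO. In such bulk samples a smaller share of cardiomyocytes and less RNA per cardiomyocyte cannot be told apart.

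KO replicate 2 stood apart in the sarcomere genes as well. Among the 35 members that passed the filter on low values (3 libraries or more at or above 0.5 FPKM), 23 had their lowest scaled level in KO replicate 2, and 16 had their highest in WT replicate 3. The median member lay 0.34 below its mean over the libraries in KO replicate 2 on the log2 scale. The corresponding median was -0.15 in WT replicate 1, -0.01 in KO replicate 1, 0.15 in WT replicate 2, 0.16 in KO replicate 3 and 0.24 in WT replicate 3. The median of the 15 cardiomyocyte markers outside the sarcomere was -0.37 in KO replicate 2 and -0.19 in WT replicate 1, the 2 libraries below the mean. The median fibroblast marker was 0.48 and 0.32 above the mean there. The part of tissue composition in the results below was not tested.

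**Figure D1:**
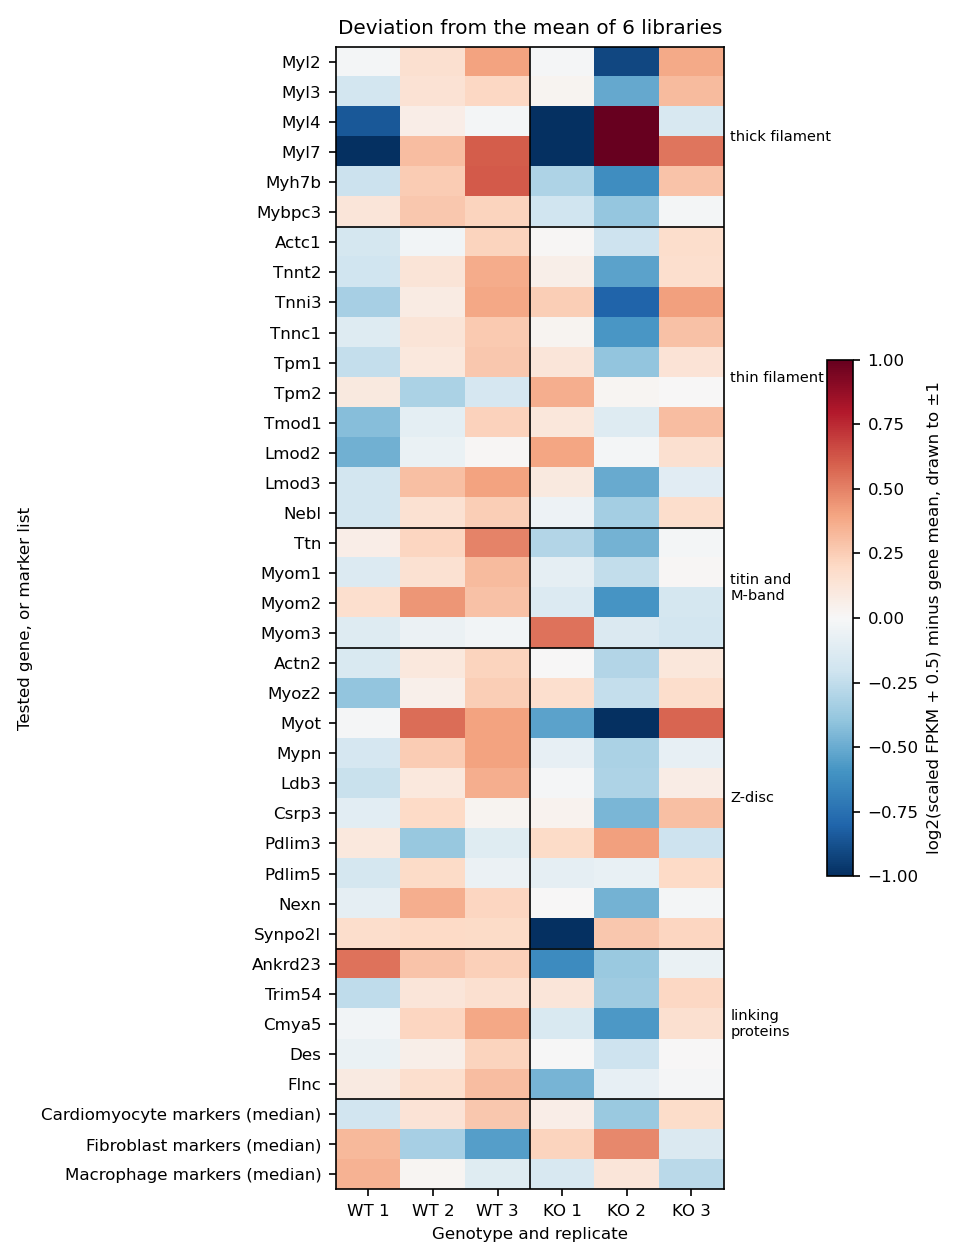
Each row is a tested member, with roles at the right, or the median of a marker list in the last 3 rows. Columns are the 6 libraries, and colour is the log2 deviation from the gene's mean over the libraries, drawn to at most 1 either way. Most members are low in KO replicate 2, where fibroblast markers are high, and high in WT replicate 3, where fibroblast markers are low.

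The most abundant members were thin filament and light chain genes. Actc1, which encodes cardiac alpha-actin, stood first with a mean of 2886 FPKM over the 6 libraries. It measured 2736, 2814 and 3182 FPKM in WT hearts and 2763, 2652 and 3167 FPKM in KO hearts. The groups overlapped almost fully (log2 difference KO minus WT -0.01 ± 0.24 SE, limma adjusted p = 0.994, and 0.09 without KO replicate 2). Because Actc1 and the skeletal actin gene are close copies, reads shared between them may have been split. The next genes were Tnnc1 (troponin C, 1551 FPKM), Myl2 (ventricular regulatory light chain, 1520), Myl3 (ventricular essential light chain, 1368) and Tnni3 (cardiac troponin I, 1169). Tpm1, the main cardiac tropomyosin gene, followed at 1064 FPKM. Neighbours in this order from Tnnc1 to Tpm1 differed by less than their spread between libraries, while Actc1 lay above all of them in each library. Ttn, which encodes titin, ranked 31 of 38 at 8.10 FPKM. At the bottom, Tnni1 (slow skeletal and fetal troponin I), Myoz1 (calsarcin-2, a skeletal Z-disc protein) and Neb (nebulin of skeletal muscle) did not exceed 0.972 FPKM in any library and were not tested.

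**Figure D2:**
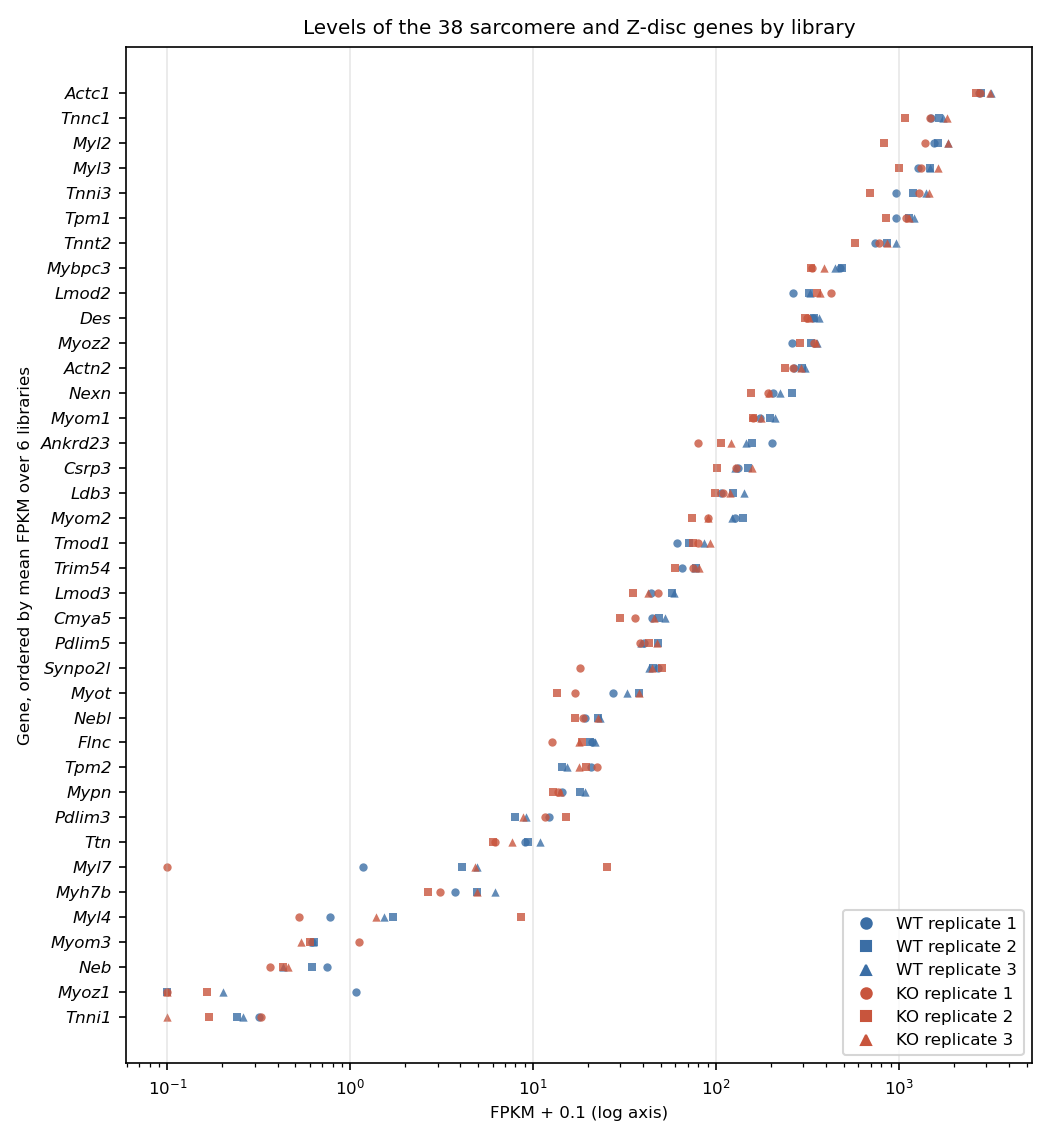
FPKM plus 0.1 on a log axis for each of the 38 genes, ordered by mean level, with 1 point for each of the 6 libraries. Levels run from 2886 FPKM for Actc1 to 0.135 FPKM for Tnni1, and Myl7 and Myl4 spread most widely between libraries.

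No member was called between the genotypes. The test was limma on log2(FPKM / scaling factor + 0.5) with Benjamini-Hochberg adjustment over 14656 genes, and a gene was called at an adjusted p under 0.05. It called 0 of 35 members against 0.375% of all tested genes, and the lowest adjusted p among members was 0.249. Of the 35, 26 had a lower mean in KO and 9 a higher one, with a median log2 difference of -0.14, against 50.7% lower and a median of -0.004 over all tested genes. Of the 15 cardiomyocyte markers outside the sarcomere, 9 were lower in KO and 6 higher, with a median of -0.10. An unadjusted p under 0.05 was reached by 5 members, all lower in KO, against 4.68% of all tested genes that reached it with a lower level and 3.80% with a higher one. In these 5, Ankrd23, Myom2, Ttn, Mybpc3 and Flnc, every KO library lay below every WT library. After scaling they were the only members without overlap, 5 of 35, a share near the 14.0% of all tested genes without overlap (7.50% lower and 6.53% higher in KO). In FPKM as deposited, 9 of 35 did not overlap, 8 of them lower (these 5 with Mypn, Nexn and Des) and 1 higher (Lmod2), against 12.8% of all tested genes (7.50% lower and 5.29% higher). The lean towards lower values moved with single libraries: without KO replicate 2, 20 of 35 members were lower and the median was -0.01, and without WT replicate 3 these were 22 and -0.07. Without WT replicate 1, 29 of 35 were lower, and without KO replicate 3, 28 of 35 were, with a median of -0.28 in both. KO replicate 3 is the library that read as female, and the part of sex was not tested. The number at an unadjusted p under 0.05 was 2 without WT replicate 3, 3 without WT replicate 2 or KO replicate 1, 4 without KO replicate 2, 7 without WT replicate 1 and 9 without KO replicate 3, where 8 were lower and Pdlim3 was higher. The share of all tested genes at that p was 7.35%, 5.81%, 6.69%, 9.74%, 8.21% and 9.60% without WT replicate 3, WT replicate 2, KO replicate 1, KO replicate 2, WT replicate 1 and KO replicate 3, in this order. Ankrd23 and Myom2 were among them in every one of these fits.

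**Figure D3:**
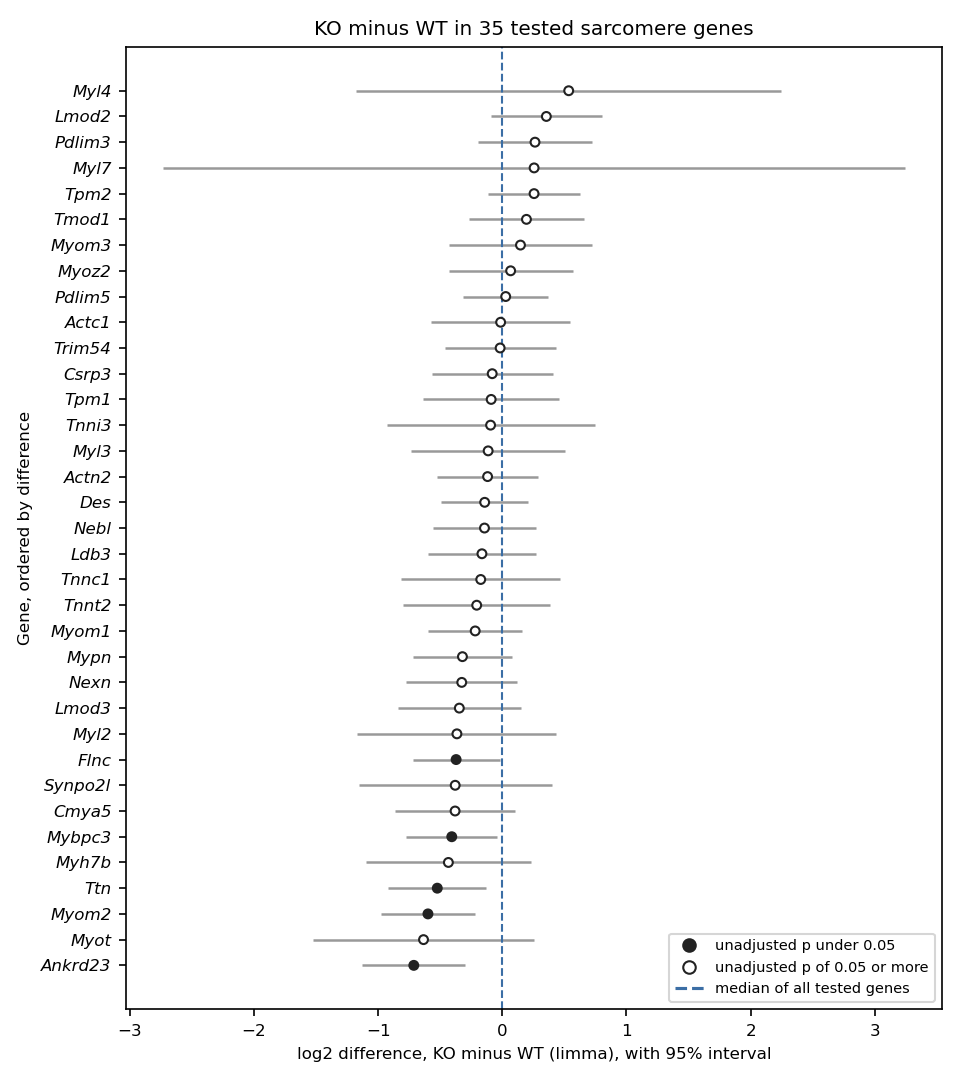
Log2 difference (KO minus WT) of the 35 tested members with its 95% interval from limma, on the log2(FPKM / factor + 0.5) scale. Filled points mark the 5 members with an unadjusted p under 0.05, and the dashed line is the median of all tested genes. Of the 35 intervals, 28 lie within -1 and 1.

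Among proteins that link the sarcomere to its surroundings, Ankrd23 showed the largest difference. It encodes a stretch-responsive ankyrin repeat protein that binds titin. Ankrd23 measured 203, 158 and 146 FPKM in WT hearts and 79.8, 106 and 121 FPKM in KO hearts. The log2 difference was -0.71 ± 0.18 (95% interval -1.13 to -0.30, limma unadjusted p = 0.0046, adjusted p = 0.249). Leaving out any 1 library gave log2 differences between -0.86 and -0.57. Flnc, the gene of filamin C at Z-discs and cell junctions, measured 20.9, 20.4 and 21.6 FPKM in WT hearts and 12.5, 18.3 and 17.7 FPKM in KO hearts. Its WT libraries lay close together and KO replicate 1 lay lowest, with a log2 difference of -0.37 ± 0.15 (limma adjusted p = 0.552). Des, which encodes the intermediate filament protein desmin, measured 340, 345 and 367 FPKM in WT hearts and 315, 306 and 324 FPKM in KO hearts. Those FPKM do not overlap, but after scaling they did, and the log2 difference was small (-0.14 ± 0.15, limma adjusted p = 0.855, and -0.07 without KO replicate 2). Cmya5, the gene of the desmin-binding protein myospryn, differed by -0.38 ± 0.21 (-0.55 to -0.19 with 1 library left out, nearest to 0 without KO replicate 2). It overlaps the antisense gene A630019I02Rik, which averaged 28.3 FPKM, and the counting is not stated to use strand, so reads of the pair cannot be told apart. Trim54, a microtubule-associated ubiquitin ligase gene of the sarcomere, differed by -0.02 ± 0.19 (0.16 without KO replicate 2). The 5 genes of this role summed to 673, 649 and 663 FPKM in WT hearts and to 518, 520 and 589 FPKM in KO hearts. These sums did not overlap, as was so for 12.8% of all tested genes in FPKM as deposited, a share of single genes and not of sums. Des and Ankrd23, whose values are given above, made up most of the sums.

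In the M-band, where thick filaments are held in register, Myom2 had the largest difference of the 3 myomesin genes, though differences were not tested against each other except for Myom3 and Myom1. Myom2 (M-protein) measured 126, 141 and 121 FPKM in WT hearts and 90.7, 73.6 and 90.0 FPKM in KO hearts, without overlap. Its log2 difference was -0.60 ± 0.16 (95% interval -0.98 to -0.22, limma unadjusted p = 0.0070, adjusted p = 0.294), and it lay between -0.68 and -0.45 without any 1 library. Myom1, the main cardiac myomesin, measured 174, 197 and 210 FPKM in WT hearts and 160, 159 and 175 FPKM in KO hearts. Here KO replicate 3 reached the lowest WT library as deposited, and KO replicates 1 and 3 both lay above it after scaling. The log2 difference was -0.22 ± 0.16 (limma adjusted p = 0.792). Myom1 shares its locus with Myl12a on the other strand, which averaged 188 FPKM. Myom3, a minor form, stayed near 0.5 FPKM except for 1.02 FPKM in KO replicate 1. Ttn measured 8.94, 9.23 and 10.8 FPKM in WT hearts and 6.08, 5.91 and 7.59 FPKM in KO hearts. Every KO library was below every WT library (log2 difference -0.52 ± 0.17, 95% interval -0.92 to -0.13, limma unadjusted p = 0.016, adjusted p = 0.398). The Ttn locus (chromosome 2, 76703980 to 76982547, minus strand, GRCm38) makes a transcript of up to 106824 bases in the annotation, the longest of the group.

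Longer members tended to have lower values in KO. Spearman's rho between the longest annotated transcript and the log2 difference was -0.34 across the 35 members, against -0.02 across 14631 tested genes. It was -0.50 across the 15 cardiomyocyte markers outside the sarcomere. These are descriptions across genes that share the same 6 libraries, and the part of transcript length or RNA quality was not tested.

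In the thick filament, the gene of myosin binding protein C was the one without overlap. Mybpc3, which restrains myosin heads and is a common site of cardiomyopathy mutations, measured 473, 486 and 449 FPKM in WT hearts and 337, 329 and 389 FPKM in KO hearts. All 3 KO libraries lay below all 3 WT libraries, with a log2 difference of -0.41 ± 0.16 (95% interval -0.77 to -0.04, limma unadjusted p = 0.034, adjusted p = 0.522). The ventricular light chain gene Myl2 measured 1558, 1635 and 1845 FPKM in WT hearts and 1388, 830 and 1861 FPKM in KO hearts. KO replicate 2 lay far below the rest. KO replicate 3 lay slightly above all WT libraries as deposited, but below WT replicate 3 after scaling. The log2 difference of Myl2 was -0.37 ± 0.34 (limma adjusted p = 0.840). It became -0.0008 without KO replicate 2 and -0.65 without KO replicate 3. Myl3 measured 1278, 1486 and 1485 FPKM in WT hearts and 1317, 1004 and 1638 FPKM in KO hearts, with the same low library. Its log2 difference turned from -0.11 ± 0.26 to 0.12 without KO replicate 2. Myh7b, a low-level slow-type heavy chain gene, differed by -0.43 ± 0.28 with overlapping groups. With 1 library left out it ran from -0.68 to -0.23, nearest to 0 without KO replicate 2. Myh7b shares its locus with Trpc4ap on the other strand, which averaged 11.2 FPKM, above the 4.15 FPKM of Myh7b.

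The atrial light chain genes moved in the opposite direction to the ventricular ones in KO replicate 2. Myl7, the atrial regulatory light chain gene, measured 1.07, 4.0 and 4.80 FPKM in WT, was listed at 0 in KO replicate 1 and measured 25.2 and 4.68 FPKM in KO replicates 2 and 3. Myl4, the atrial essential light chain gene, measured 0.676, 1.62 and 1.42 FPKM in WT hearts and 0.428, 8.45 and 1.29 FPKM in KO hearts. Both were highest in KO replicate 2 and low in WT replicate 1 and KO replicate 1. Of the 7 other genes on the list of atrial markers, 4 were highest in that library too (Sln, Mybphl, Nppa and Dkk3). Pam was slightly higher in WT replicate 1, Stard10 was lowest in KO replicate 2, and Bmp10, an atrial growth factor gene, was listed at 0 in all 6 libraries. Sln (sarcolipin) stood at 4.75 FPKM there and at most 1.01 FPKM elsewhere, and Mybphl at 1.85 FPKM against at most 0.111 FPKM. The 9 genes of the atrial list summed to 1579, 1177 and 1073 FPKM in WT hearts and 934, 1796 and 889 FPKM in KO hearts, most of it from Nppa, which the stressed ventricle also makes. The part of atrial tissue in these values was not tested. Neither light chain gene was called: the log2 difference between genotypes was 0.26 ± 1.28 for Myl7 and 0.53 ± 0.73 for Myl4 (limma adjusted p = 0.978 and 0.895). Without KO replicate 2 the differences were -1.04 and -0.36.

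**Figure D4:**
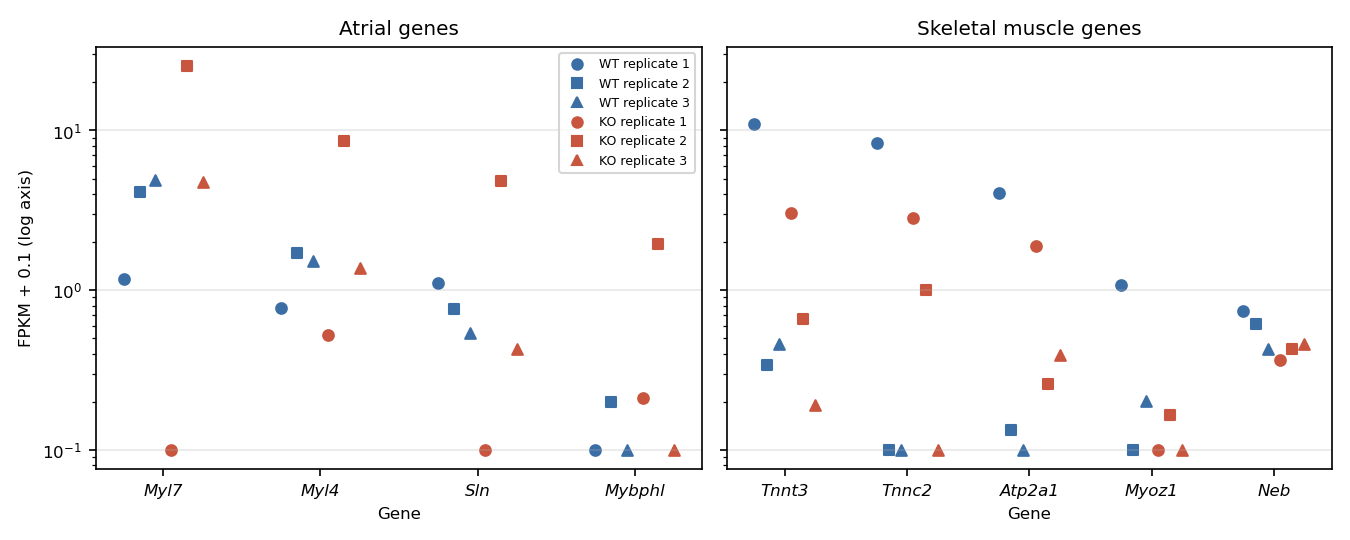
FPKM plus 0.1 on a log axis for atrial genes (left) and skeletal muscle genes (right), with 1 point for each of the 6 libraries; a point at 0.1 is listed at 0. The 4 atrial genes drawn (Myl7, Myl4, Sln and Mybphl) are highest in KO replicate 2, and the 5 skeletal genes drawn (Tnnt3, Tnnc2, Atp2a1, Myoz1 and Neb) are highest in WT replicate 1.

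Of the skeletal forms of the Z-disc and thin filament, Myoz1 and Neb were highest in another library, WT replicate 1. Myoz1 stood at 0.972 FPKM in WT replicate 1, was listed at 0 in WT replicate 2 and KO replicates 1 and 3, and was at most 0.102 FPKM in the others. Neb stood at 0.644, 0.517 and 0.328 FPKM in WT hearts and 0.266, 0.330 and 0.359 FPKM in KO hearts, also highest in WT replicate 1. Its lowest value was in KO replicate 1, where skeletal fibre markers summed higher than in any library but WT replicate 1. The 12 skeletal fibre markers summed to 69.7, 14.9 and 15.4 FPKM in WT hearts and 34.4, 25.996 and 16.6 FPKM in KO hearts, and 11 of the 12 were highest in WT replicate 1, while Mybpc2 was highest in KO replicate 2. Among them the fast troponin T gene Tnnt3 measured 10.9 FPKM in WT replicate 1, 2.95 FPKM in KO replicate 1 and at most 0.556 FPKM elsewhere. The part of skeletal muscle in these libraries was not tested. Tnni1, the slow skeletal and fetal troponin I gene, stood at 0.215, 0.140 and 0.160 FPKM in WT hearts and 0.227 and 0.0679 FPKM in KO replicates 1 and 2, and was listed at 0 in KO replicate 3.

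Along the thin filament, the leiomodin genes Lmod2 and Lmod3 went in opposite directions, and neither was called. Leiomodins promote growth of actin filaments at their pointed ends, which tropomodulin (Tmod1) caps. Lmod2, the main cardiac leiomodin gene, measured 263, 323 and 326 FPKM in WT hearts and 427, 356 and 371 FPKM in KO hearts. Those FPKM did not overlap, the only member higher in each KO library, but after scaling KO replicate 2 lay within the WT range (log2 difference 0.35 ± 0.19, 95% interval -0.09 to 0.80, limma adjusted p = 0.700). Lmod3, known mainly from skeletal muscle, measured 44.2, 57.6 and 58.9 FPKM in WT hearts and 47.8, 34.99 and 42.2 FPKM in KO hearts, with overlap (log2 difference -0.35 ± 0.21, limma adjusted p = 0.740, and -0.18 without KO replicate 2). Set against each other within a library, the scaling factor cancels up to the pseudocount. The ratio of these 2 genes did not overlap between the genotypes, the only 1 of the 8 ratios compared to do so. Among all tested genes, 14.0% had no overlap after scaling, but that share is of single genes, and ratios of other gene pairs were not surveyed. The 8 pairs were chosen with earlier results of these data known. The log2 ratio of Lmod3 to Lmod2 was -2.56, -2.48 and -2.46 in WT and -3.14, -3.33 and -3.12 in KO hearts. The difference of -0.70 was large beside the spread in either group (SD 0.05 in WT and 0.11 in KO). The exact permutation test of 3 against 3 gave p = 0.1, two-sided, the smallest it allows, and 0.8 after Benjamini-Hochberg adjustment over the 8 ratios. Without any 1 library the difference stayed between -0.74 and -0.64, so it did not rest on KO replicate 2. Ratios of the other 7 pairs overlapped between genotypes (Tnni1 to Tnni3, Myl7 to Myl2, Myl4 to Myl3, Tpm2 to Tpm1, Myoz1 to Myoz2, Myom3 to Myom1 and Neb to Nebl), with exact permutation p of 0.2 to 1.

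**Figure D5:**
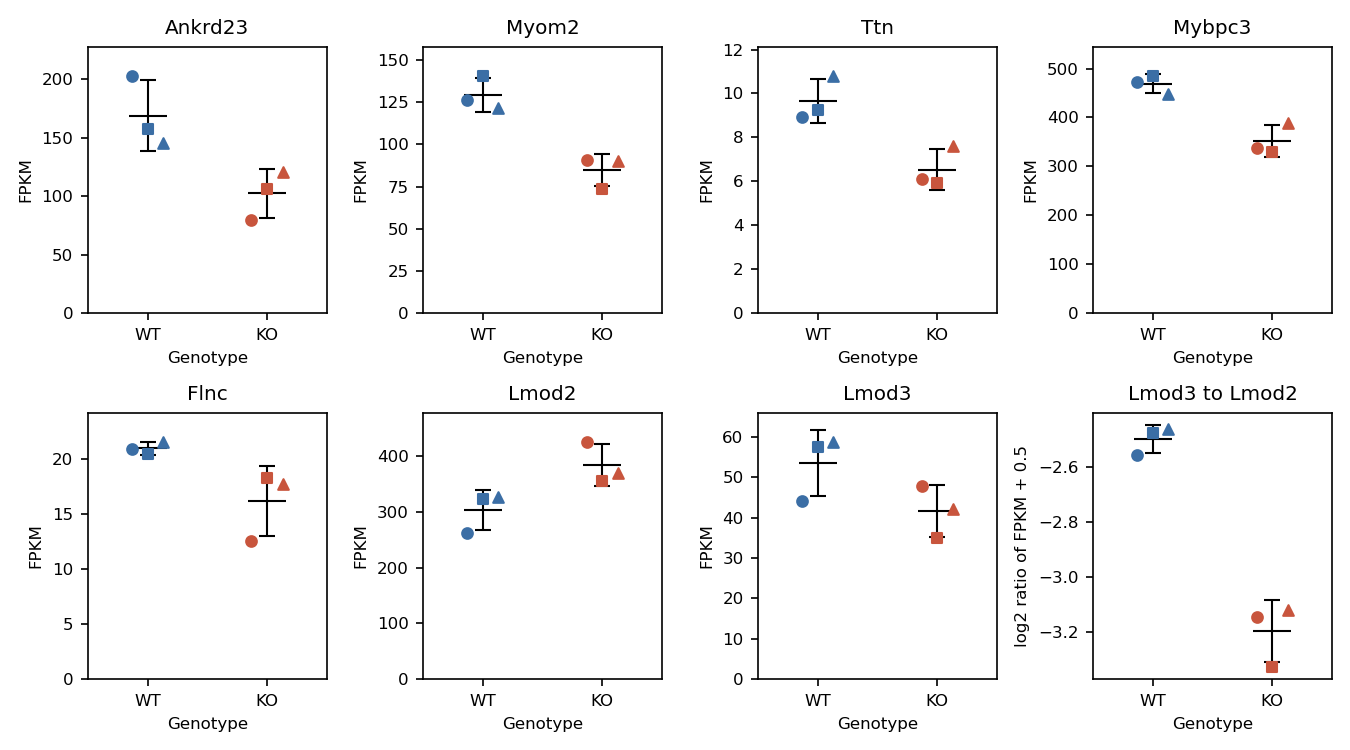
FPKM by genotype for 7 members and the log2 ratio of Lmod3 to Lmod2, with each library as a point (circle, square and triangle for replicates 1, 2 and 3) and the mean ± SD (n = 3) in black. Ankrd23, Myom2, Ttn, Mybpc3 and Flnc lie lower in each KO library, and the ratio lies near -2.5 in WT and -3.2 in KO.

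The calcium-sensing parts of the thin filament showed no separation. Tnni3 measured 968, 1193 and 1409 FPKM in WT hearts and 1281, 692 and 1469 FPKM in KO hearts. Tnnt2 (cardiac troponin T) measured 737, 856 and 966 FPKM in WT hearts and 783, 574 and 859 FPKM in KO hearts, and Tnnc1 measured 1500, 1660 and 1745 against 1488, 1085 and 1827 FPKM. In each of the 3, KO replicate 2 was the lowest of the 6 libraries, and KO replicates 1 and 3 lay within the WT range or close to its ends. Their log2 differences were -0.09 ± 0.36, -0.21 ± 0.25 and -0.17 ± 0.27 in this order, and without KO replicate 2 all 3 turned, to 0.28, 0.01 and 0.07. The 95% interval of Tnni3 ran from -0.93 to 0.74, so a change of moderate size would not be detectable here. Tpm1 measured 962, 1131 and 1208 FPKM in WT hearts and 1099, 855 and 1130 FPKM in KO hearts, with a log2 difference of -0.09 ± 0.23 that became 0.08 without KO replicate 2. Tpm2, the beta-tropomyosin gene, measured 20.7, 14.3 and 15.2 FPKM in WT hearts and 22.2, 19.4 and 17.6 FPKM in KO hearts, with a log2 difference of 0.26 ± 0.16. Tmod1 differed by 0.19 ± 0.20, and Nebl, which encodes the cardiac nebulette, by -0.14 ± 0.18, both with overlapping groups. Without KO replicate 2 these were 0.31 and -0.01. Tmod1 shares its locus with Tstd2 on the other strand, which averaged 22.1 FPKM.

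At the Z-disc, 7 of 10 tested members were lower in KO and none reached an unadjusted p under 0.05. Actn2, whose product alpha-actinin crosslinks thin filaments, measured 266, 294 and 306 FPKM in WT hearts and 264, 238 and 290 FPKM in KO hearts (log2 difference -0.12 ± 0.17, limma adjusted p = 0.905, and -0.0006 without KO replicate 2). Myoz2, the cardiac calsarcin gene, measured 260, 329 and 358 FPKM in WT hearts and 341, 286 and 351 FPKM in KO hearts, with a log2 difference of 0.07 ± 0.21 (0.20 without KO replicate 2). Both genes thus overlapped between the genotypes. Nexn (nexilin) measured 205, 259 and 223 FPKM in WT hearts and 193, 155 and 195 FPKM in KO hearts, and Mypn (myopalladin) 14.4, 17.97 and 19.1 against 13.6, 12.8 and 13.9 FPKM. Each of the 2 was lower in all KO libraries as deposited and overlapped after scaling, with log2 differences of -0.33 ± 0.19 and -0.32 ± 0.17. Leaving out 1 library at a time gave -0.45 to -0.17 for Nexn, nearest to 0 without KO replicate 2, and -0.49 to -0.20 for Mypn, nearest to 0 without WT replicate 3. Myot (myotilin) varied widely within KO, at 16.8, 13.3 and 37.6 FPKM against 27.3, 37.8 and 32.3 FPKM in WT. Its log2 difference was -0.63 ± 0.38. With 1 library left out at a time it ran from -1.08 to -0.29, nearest to 0 without KO replicate 2. Synpo2l, the gene of an actin-binding Z-disc protein, was low in a single library: it measured 48.0, 45.3 and 43.1 FPKM in WT hearts and 17.96, 50.8 and 44.8 FPKM in KO hearts. Without KO replicate 1 its log2 difference turned from -0.38 to 0.05. The LIM-domain genes Csrp3, Ldb3, Pdlim3 and Pdlim5 had log2 differences of -0.08, -0.16, 0.26 and 0.03, with overlapping groups, and of 0.13, -0.05, 0.12 and 0.07 without KO replicate 2.

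Of 56 other sarcomere-associated genes, 52 passed the filter, 35 lower and 17 higher in KO, with a median log2 difference of -0.13. Limma called 0 of these 52 at the adjusted threshold, and 7 reached an unadjusted p under 0.05 (5 lower and 2 higher) against 8.48% of all tested genes. The 3 of smallest p were Tcap, Myh7 and Kbtbd13. Tcap, whose product telethonin caps titin at the Z-disc, measured 468, 537 and 508 FPKM in WT hearts and 1464, 1062 and 1387 FPKM in KO hearts. Its log2 difference was 1.37 ± 0.22 (limma adjusted p = 0.068), and it was called without scaling (adjusted p = 0.028) and without KO replicate 2 (0.044). Its partner at the Z-disc, Ttn, went the other way, with values given above. Myh7, the beta-myosin heavy chain gene, measured 293, 219 and 205 FPKM in WT hearts and 141, 136 and 163 FPKM in KO hearts (log2 difference -0.67 ± 0.16, limma adjusted p = 0.225). Kbtbd13, a muscle ubiquitin ligase adaptor gene, was lower at a low level, at 0.788, 0.783 and 0.842 FPKM against 0.0479, 0.289 and 0.416 FPKM (limma adjusted p = 0.359).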

How the data were processed

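Hearts of 3 WT and 3 KO mice were compared, grouped by the genotype and replicate number of the sample titles. RNA was extracted with Trizol and libraries came from Illumina's TruSeq RNA chemistry, per the labels' protocols. The authors deposited FPKM values, under a name that calls them counts; between 37.2% and 40.4% of a library's entries are fractional. Bowtie 0.12.2 and the builds mm8 and mm9 appear in the submitters' processing notes without a role. The quantifier, the annotation and any filter: not given in the sources used here. Symbols came from GENCODE M21 (GRCm38), which matched 52403 of 52550 identifiers, 93.3% of rows with the same version. All 37 mitochondrially encoded genes are listed at 0, so a 0 is reported as listed.

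The 14656 genes that reached 0.5 FPKM in 3 libraries or more were tested with limma 3.58.1 in R 4.3.3 (mean-variance trend, empirical Bayes, two-sided) on log2(FPKM / factor + 0.5). This scale understates changes of genes with low FPKM. Factors were trimmed means of log2 ratios (trims of 0.3 and 0.05) and lay between 0.949 and 1.07. The script was tested on simulated data. Overlap of groups was judged on scaled FPKM unless FPKM as deposited are named. Ratios within a library were compared by exact permutation (SciPy 1.17.1). All members could be named, with every library for the 5 of smallest p, the 5 most abundant and both genes of each ratio, and the 3 other sarcomere-associated genes of smallest p; other genes were named after their values were seen. Members, lists and tests were chosen with earlier results of these data known. The worth of 1 fragment was the most frequent FPKM times length in genes with a single transcript. Alternatives were other scaling, filters, pseudocounts, variance settings, a replicate block and leaving out each library. Scaling on other protein-coding genes or on the 15 cardiomyocyte markers was added after seeing the data.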

Additional observations from a re-analysis of the deposited data

How the results depend on the processing

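Across 18 alternatives no member was called, and the lowest adjusted p of any member was 0.170, for Ankrd23 without KO replicate 3. Among the 35 tested members and the 3 other named genes, 24 kept their direction in each alternative. The count over all tested genes (55) was 20 with no filter beyond 1 library above 0 and 12 to 36 with a library left out, lowest without KO replicate 1, and 32 when scaled to cardiomyocyte markers. Of the other sarcomere-associated genes, 1, Tcap, was called without scaling, without KO replicate 2 and when scaled to cardiomyocyte markers (log2 differences of 1.36, 1.56 and 1.45), and 0 in the reported fit and the other 15 alternatives. The causes of these changes were not tested.

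The median log2 difference of the members lay between -0.28 and -0.01 with a library left out, and that of the log2 summed FPKM between -0.27 and 0.062, turning positive without KO replicate 2. Scaling to cardiomyocyte markers moved the median of all tested genes to 0.07 and that of the members to -0.06, with 2 lower members (Ankrd23 and Myom2) and 1 higher member (Lmod2) at an unadjusted p under 0.05, against 3.97% of all tested genes in that fit.

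With a library left out, members that changed sign had ranges of -0.30 to 0.12 (Myl3), -0.36 to 1.22 (Myl4), -1.04 to 1.76 (Myl7), -0.11 to 0.092 (Actc1), -0.36 to 0.012 (Tnnt2), -0.32 to 0.28 (Tnni3), -0.36 to 0.075 (Tnnc1) and -0.23 to 0.084 (Tpm1). The ranges were -0.087 to 0.27 for Myom3, -0.11 to 0.20 for Myoz2, -0.25 to 0.13 for Csrp3, -0.066 to 0.13 for Pdlim5, -0.61 to 0.053 for Synpo2l and -0.15 to 0.16 for Trim54. Among members that kept their sign, ranges were -0.53 to -0.18 (Lmod3), -0.27 to -0.0091 (Nebl), -0.22 to -0.0006 (Actn2) and -0.21 to -0.068 (Des). They were -0.32 to -0.024 for Ldb3, 0.030 to 0.36 for Tmod1 and 0.12 to 0.44 for Pdlim3. Myl7 turned to -0.33 with a pseudocount of 0.1, and Actc1, Csrp3 and Trim54 to 0.070, 0.0012 and 0.065 when scaled to cardiomyocyte markers. Differences of ratios ran from -0.38 to 0.26 for Tnni1 to Tnni3 (0.0088 with a pseudocount of 1), from -0.996 to 2.22 for Myl7 to Myl2 and from -0.44 to 1.39 for Myl4 to Myl3. They ran from -0.94 to 0.0031 for Myoz1 to Myoz2 and from -0.29 to 0.071 for Neb to Nebl.

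The labels give no link between same-numbered WT and KO libraries beyond the number. The correlations of their deviations were 0.01, -0.04 and 0.18 for numbers 1 to 3, and ran from -0.20 to 0.19 for pairs with unlike numbers. Whether same-numbered libraries shared a litter or session was not tested. With the replicate number as a block, 42 genes were called over all tested genes and 0 members, with the median member at -0.14.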
